A study of Mus musculus with 6 samples.

Results

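Fth1, Ftl1, Trf and Tfrc, the genes of the 2 ferritin chains, of transferrin and of its receptor, were followed in RNA from mouse blood platelets. They are 4 of the 24346 gene symbols in each expression table, found by symbol, and were chosen by their FPKM in knock-in against wild-type libraries, read beside the haemoglobin mRNA of each library. The samples were 3 platelet libraries from mice homozygous for the β3(R734C) knock-in, in which an arginine of the integrin β3 chain is replaced by cysteine, and 3 from wild-type mice. The labels give no age, and no other allele or treatment. Whether each library came from its own animal is not stated, so the replicate spread behind each p-value may be technical only. Values are FPKM, fragments per kilobase of transcript and per 1000000 fragments of the library, which allow levels to be compared between genes.

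Ferritin is a hollow protein shell that stores iron. Its heavy chain, encoded by Fth1, oxidizes incoming iron, and its light chain, encoded by Ftl1, promotes the growth of the mineral core. Transferrin, encoded by Trf, carries iron in plasma and is made mainly by the liver, and the transferrin receptor, encoded by Tfrc, takes it into cells. Maturing red cells hold much receptor and lose it as they become erythrocytes. When iron is scarce, iron regulatory proteins bind a hairpin named the iron-responsive element. Bound at the start of the ferritin mRNAs it blocks their translation, and bound near the end of the receptor mRNA it protects that mRNA from decay.

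The hairpins are shown because they are the sequence that both ferritin mRNAs and the receptor mRNA have in common. A search for CNNNNNCAGTGN followed by 5 bases that pair with the 5 bases before CAGTG, G-T pairs allowed, was run on the sense strand of GENCODE M21 transcripts (GRCm38). It found 1 element in the 5′ UTR of Fth1, 1 in the 5′ UTR of Ftl1 and 4 in the 3′ UTR of Tfrc, each printed 5′ to 3′ as 30 bases with the loop in capitals.
Fth1, chr19:9982732-9982761, plus strand: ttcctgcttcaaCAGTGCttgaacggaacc
Ftl1, chr7:45459778-45459807, minus strand: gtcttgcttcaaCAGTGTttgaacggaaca
Tfrc element 1, chr16:32631219-32631248, plus strand: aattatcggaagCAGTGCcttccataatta
Tfrc element 2, chr16:32631598-32631627, plus strand: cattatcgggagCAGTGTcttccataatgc
Tfrc element 3, chr16:32631663-32631692, plus strand: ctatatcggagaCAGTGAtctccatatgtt
Tfrc element 4, chr16:32631710-32631739, plus strand: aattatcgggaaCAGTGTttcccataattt

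The Fth1 and Ftl1 windows shared 26 of 30 bases, whereas either shared 9 to 13 of 30 with the Tfrc windows. The same pattern was present in 0.148% of genes with an annotated 5′ UTR (31 of 20899) and in 0.613% of genes with a 3′ UTR (129 of 21028). It was found in 0 of the 6 coding transcripts of Trf, which says only that these letters are not there. Sequence matches of this kind are descriptions, and binding was not measured.

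Total FPKM was 758381 to 856863 in knock-in and 641278 to 708432 in wild-type libraries. Depth, roughly estimated from the worth of 1 fragment in genes with low values, was 7860000 to 9400000 fragments in knock-in and 8910000 to 9400000 in wild-type libraries. All 12 platelet markers were present, with summed levels of 52378 to 58322 FPKM in knock-in and 55730 to 57973 FPKM in wild-type libraries. Of these 12, 3 were called (limma, adjusted p under 0.05), against 8.36% of the 4859 genes with a mean of at least 1 FPKM. Tubb1 (log2 fold change -0.82) and Gp1ba (-0.65) were lower and Nrgn (0.46) was higher in the knock-in. The 11 neutrophil markers in the tables summed to 0.538 to 1.73 FPKM in knock-in and 0.0438 to 2.28 FPKM in wild-type libraries, with Mpo, Elane and Camp listed at 0 throughout. The 9 T and NK cell markers summed to 5.06 to 8.83 against 2.67 to 4.42 FPKM, nearly all of it Nkg7, with Cd3e at 0. The 7 B cell markers summed to 0.693 to 3.59 against 0.648 to 1.66 FPKM, with Ms4a1 at 0. The 13 monocyte and macrophage markers were at 1.51 to 2.85 FPKM in knock-in and 2.22 to 4.31 FPKM in wild-type libraries once Lyz2 was set aside, and Lyz2 alone averaged 8355 ± 1016 against 7683 ± 609 FPKM (SD, n = 3 each). The 8 endothelial markers summed to 42.8 to 48.6 against 36.4 to 44.5 FPKM, and 7 adipocyte markers to 0 to 2.77 against 0.137 to 0.886 FPKM. The part of other cell types in the results was not tested.

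Fth1 mRNA was higher in knock-in libraries. It measured 27637, 34715 and 36833 FPKM in knock-in libraries 1, 2 and 3, against 21919, 19085 and 19394 FPKM in wild-type libraries 1, 2 and 3. Every knock-in library lay above every wild-type library, the nearest pair being 1.26-fold apart. The group means were 33061 ± 4816 against 20133 ± 1554 FPKM (SD, n = 3 each), 1.64-fold, and the log2 fold change of FPKM + 1 was 0.71 (SE 0.12). Fth1 was the second most abundant mRNA in knock-in libraries 2 and 3, held rank 5 in knock-in library 1 and rank 4 in each wild-type library. The gene spans chr19:9980598-9985098 (GRCm38, plus strand), and no exon of another annotated gene overlaps its own. Processed copies exist, and Fth-ps2, the copy looked up, had no FPKM value under that symbol.

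Ftl1 mRNA differed less. It measured 27786, 28087 and 29535 FPKM in knock-in libraries 1, 2 and 3, against 23451, 23356 and 23317 FPKM in wild-type libraries 1, 2 and 3. The groups did not overlap in FPKM as deposited, and the wild-type values lay close together. The means of 28470 ± 935 against 23375 ± 69.0 FPKM (SD, n = 3 each) were 1.22-fold apart. The log2 fold change was 0.28 (SE 0.07), which became -0.41 with quantile normalization. Ftl1 spans chr7:45457944-45459884, minus strand. The gene model Gm10252 on the other strand overlaps its exons, and near-identical processed copies of Ftl1 exist elsewhere in the genome (Ftl1-ps1, Ftl1-ps2, Ftl2-ps), so fragments could be shared among them. Those copies had no FPKM value under these symbols, so their levels could not be read. The ferritin relatives Ftmt and Fthl17 were listed at 0 in every library.

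The balance of the 2 chain mRNAs also differed between the genotypes, and chain protein was not measured. The Fth1 to Ftl1 ratio of FPKM was 0.995, 1.24 and 1.25 in knock-in libraries 1, 2 and 3, against 0.935, 0.817 and 0.832 in wild-type libraries 1, 2 and 3. In FPKM, heavy-chain mRNA was below light-chain mRNA in all 3 wild-type libraries and in knock-in library 1, and above it in knock-in libraries 2 and 3. The transcript lengths behind the FPKM are not given, and fragments could be shared with Ftl1 copies. Which side of 1 a ratio falls on is thus uncertain. The mean ratio was 1.16 ± 0.143 against 0.861 ± 0.0640 (SD, n = 3 each). Summed, both ferritin mRNAs took 6.47% to 8.51% of all FPKM in knock-in and 6.40% to 6.63% in wild-type libraries, so the groups overlapped in that share.

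**Figure D1:**
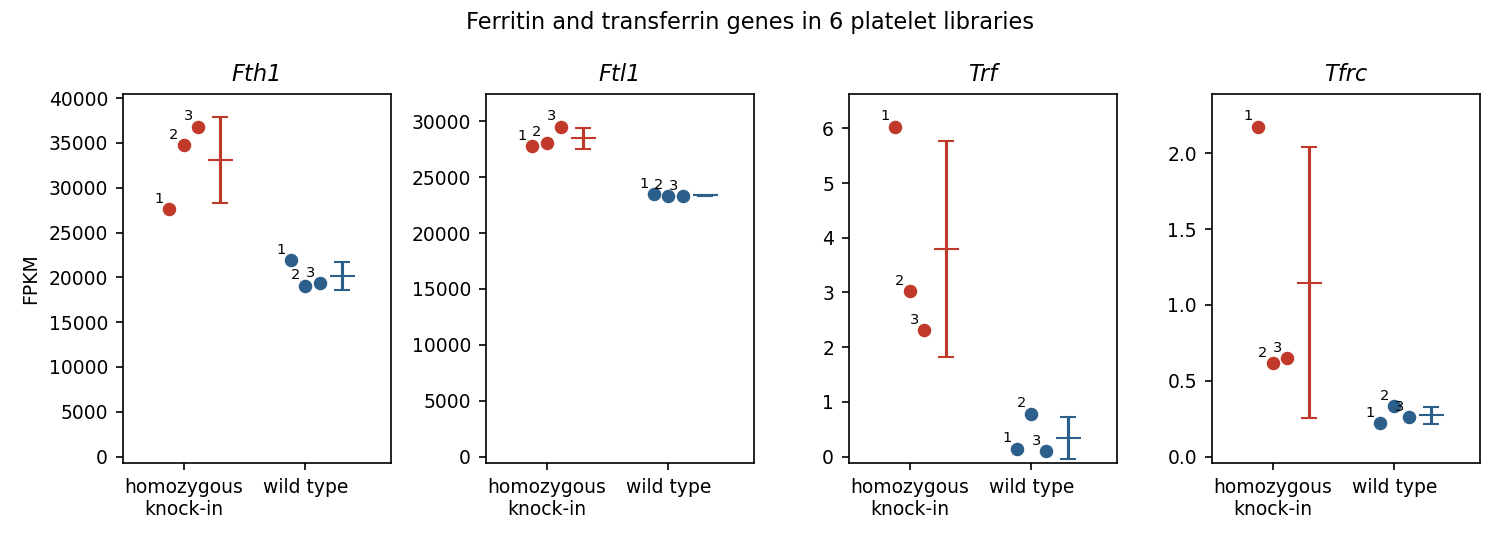
FPKM of Fth1, Ftl1, Trf and Tfrc in each library, homozygous knock-in left of wild type, with library numbers beside the points and the mean ± SD (n = 3) to the right of each group. In all 4 genes the lowest knock-in point is above the highest wild-type point, and knock-in library 1 is the highest point for Trf and Tfrc. The log2 fold change of Ftl1 was 0.28 as deposited and 0.035 to 0.29 under the library scalings run. It was below 0 only with quantile normalization (-0.41).

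In all 4 genes every knock-in library was above every wild-type library in FPKM as deposited. Over the 4859 genes with a mean of at least 1 FPKM, 14.9% had that order, and over the 12260 genes above 0 in any library 7.97% had it. Because the genes were chosen with this contrast known, no test of it is given for them and nothing is read from the count. Total FPKM was also higher in every knock-in library (758381 to 856863 against 641278 to 708432). As a share of the total, the summed ferritin mRNAs overlapped between the groups. That share was 6.47% in knock-in library 1, against 6.62% and 6.63% in wild-type libraries 2 and 3. In the fit over all 4859 genes (limma, adjusted p under 0.05), 8.36% were called, 4.36% as higher and 3.99% as lower in the knock-in.

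Haemoglobin mRNA, a trace of red cells and of their immature form, the reticulocyte, varied widely within both groups. The summed FPKM of the haemoglobin genes was 174631, 24284 and 31514 in knock-in libraries 1, 2 and 3, against 90564, 46193 and 36766 in wild-type libraries 1, 2 and 3. Knock-in library 1 was the highest of all, and knock-in libraries 2 and 3 were below every wild-type library. The groups overlapped, and the mean was 76810 ± 84793 against 57841 ± 28729 FPKM (SD, n = 3 each), higher in the knock-in through library 1, while the mean of the log2 values was slightly lower (log2 difference -0.07, two-sided exact permutation p = 1, where 3 against 3 cannot go below 0.1). The share of the total FPKM was 3.20% to 20.4% in knock-in and 5.71% to 12.8% in wild-type libraries. Hba-a1 was the main α-globin symbol, with 46261 against 34863 FPKM, and Hba-a2, its near-identical copy, was at most 0.128 FPKM. The β-globin symbols Hbb-b1 (18516 against 14036 FPKM), Hbb-b2 (8381 against 6227) and Hbb-bs (3650 against 2711) also share sequence, so the sum was used. Embryonic Hbb-y averaged 2.15 against 3.09 FPKM, and embryonic Hba-x was at most 1.31 FPKM.

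Ferritin mRNA did not follow haemoglobin mRNA across the genotypes. Fth1 was highest in knock-in libraries 3 and 2, which had the least haemoglobin of all 6 libraries, and lowest of its group in knock-in library 1, which had the most. In the wild type the order was partly the opposite, with the most Fth1 in library 1, the richest in haemoglobin. Ftl1 changed little with haemoglobin in either group. With the log2 haemoglobin level of each library as a covariate, the log2 fold change of Fth1 was 0.70 and that of Ftl1 0.28, almost as without it. The groups differed by only -0.07 in mean log2 haemoglobin, so this covariate could move either value little, however closely ferritin tracked haemoglobin within groups. The part of red cell RNA in the ferritin difference was not tested. Without the haemoglobin-richest library of each group, that is with 2 libraries a group, Fth1 had 0.89 and Ftl1 0.30. Fth1 per unit of haemoglobin was 0.158, 1.43 and 1.17 in knock-in libraries 1, 2 and 3, against 0.242, 0.413 and 0.527 in wild-type libraries 1, 2 and 3. In bulk RNA, fewer cells of a type and less RNA per cell cannot be told apart.

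**Figure D2:**
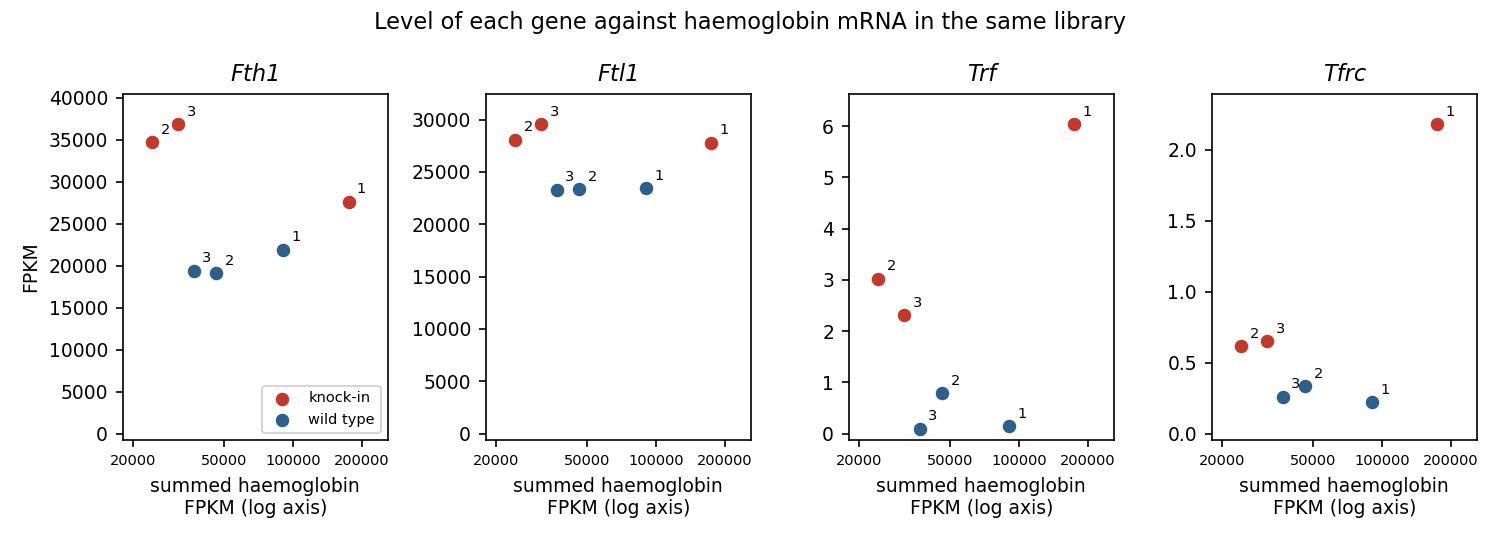
FPKM of each gene (linear axis) against the summed haemoglobin FPKM of the same library (log axis), with library numbers beside the points. Knock-in libraries 2 and 3, at 24284 and 31514 FPKM of haemoglobin, hold the most Fth1, whereas Tfrc and Trf are highest in knock-in library 1, at 174631 FPKM of haemoglobin.

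Tfrc mRNA was low, below 1 FPKM in every library except knock-in library 1. It measured 2.18, 0.617 and 0.649 FPKM in knock-in libraries 1, 2 and 3, against 0.221, 0.335 and 0.259 FPKM in wild-type libraries 1, 2 and 3. The groups did not overlap, and knock-in library 1, the library richest in haemoglobin, stood far above the others. These levels correspond to roughly 84, 27 and 30 fragments in the knock-in and 10, 15 and 12 in the wild type. The means were 1.15 ± 0.891 against 0.272 ± 0.0580 FPKM (SD, n = 3 each), 4.22-fold, with a log2 difference of FPKM + 1 of 0.68 that was 0.36 without knock-in library 1. The gene's mean of 0.710 FPKM kept it out of the tested genes. It spans chr16:32608920-32632794, plus strand.

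The order of Tfrc differed from that of haemoglobin. Wild-type library 1 had the most haemoglobin of its group and the least Tfrc. That order within the wild type rests on roughly 10, 15 and 12 fragments in libraries 1, 2 and 3, too few to rank them. Knock-in libraries 2 and 3 had more Tfrc than any wild-type library, and less haemoglobin. Per 1000000 FPKM of haemoglobin, Tfrc was 12.5, 25.4 and 20.6 FPKM in knock-in libraries 1, 2 and 3, against 2.44, 7.25 and 7.05 FPKM in wild-type libraries 1, 2 and 3. The erythroid markers as a list did follow haemoglobin, with sums of 9601, 1316 and 1725 FPKM in knock-in libraries 1, 2 and 3, against 5488, 3016 and 2340 FPKM in wild-type libraries 1, 2 and 3. Of 18 tested erythroid markers, 15 were highest in library 1 of both groups, an order that 12.1% of all tested genes had.

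Trf mRNA was scarce in wild-type libraries and low in knock-in libraries. It measured 6.03, 3.02 and 2.31 FPKM in knock-in libraries 1, 2 and 3, against 0.146, 0.787 and 0.0956 FPKM in wild-type libraries 1, 2 and 3. All knock-in values were above all wild-type values, by 2.94-fold at the nearest. The means were 3.79 ± 1.97 against 0.343 ± 0.385 FPKM (SD, n = 3 each), 11.0-fold, and the log2 fold change of FPKM + 1 was 1.79 (SE 0.36). In fragments these levels correspond to roughly 122, 69 and 56 in the knock-in and 3, 19 and 2 in the wild type. Trf passed the filter of a mean of 1 FPKM only through the knock-in libraries, so it had to differ in order to be tested. It spans chr9:103204001-103230444, minus strand, and shares exons with Gm20425, an overlapping gene model on the same strand.

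Markers of hepatocytes, the main source of transferrin, were present in traces along with Trf. The 12 markers summed to 22.0, 5.50 and 7.02 FPKM in knock-in libraries 1, 2 and 3, against 0, 8.56 and 1.50 FPKM in wild-type libraries 1, 2 and 3. Knock-in library 1 was highest in both Trf and the marker sum, and wild-type library 2 was the highest wild-type library in both. The groups overlapped in the marker sum and not in Trf. Fgb and Ahsg, 2 of the 12, did not overlap either, all knock-in values being above all wild-type values, an order that 7.97% of genes above 0 had. Fgb, a fibrinogen chain, was 0.688, 0.833 and 1.44 FPKM in the knock-in and 0, 0.144 and 0 FPKM in the wild type. Ahsg, the plasma protein fetuin-A, was 1.12, 0.482 and 2.03 FPKM in the knock-in and 0 in all wild-type libraries. These genes were singled out after their values were seen. Albumin mRNA, Alb, overlapped and was 3.84, 0.226 and 0.375 FPKM in the knock-in and 0, 0.428 and 0.553 FPKM in the wild type. Only Apoa1 and Apoa2 of this list reached the mean of 1 FPKM, and 0 of these 2 were called (limma, adjusted p under 0.05). Hamp, which encodes the liver iron hormone hepcidin, was at 1.23, 0.540 and 0 FPKM in the knock-in and at 0 in all wild-type libraries. Hpx, for the plasma haem carrier haemopexin and singled out after its values were seen, was at 2.03, 1.30 and 0 FPKM in the knock-in and at most 0.0772 FPKM in the wild type. The part of liver RNA in the Trf difference was not tested.

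**Figure D3:**
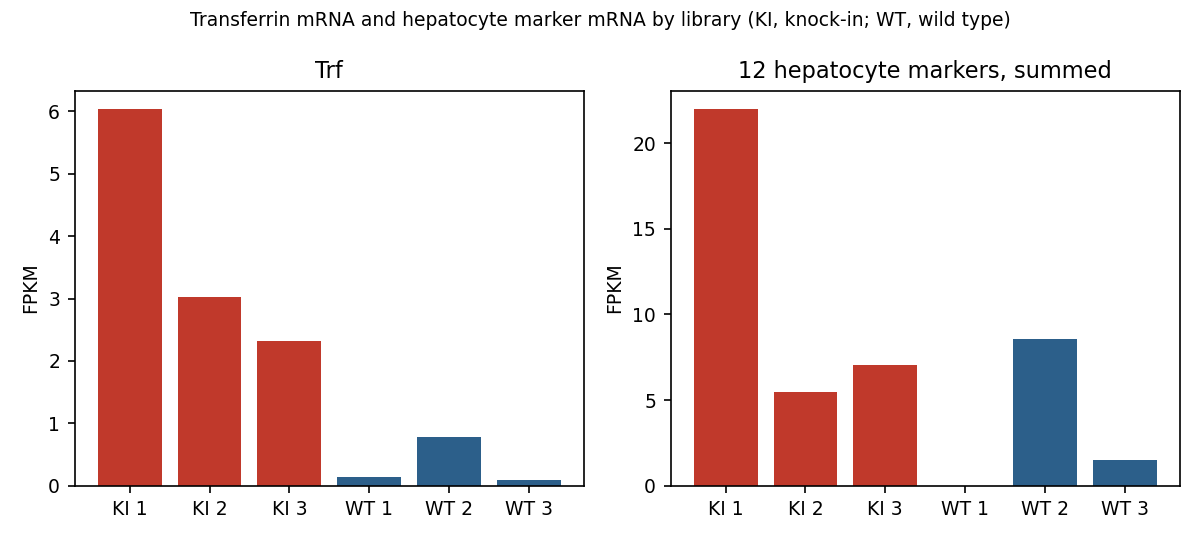
FPKM of Trf (left) and of 12 hepatocyte markers summed (right) in each library, knock-in (KI) bars left of wild-type (WT) bars. Knock-in library 1 is highest in both panels at 6.03 and 22.0 FPKM, wild-type library 1 has a marker sum of 0, and wild-type library 2 has a higher marker sum (8.56 FPKM) than knock-in libraries 2 and 3.

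Other iron genes did not pass the test. The lists held 110 further gene symbols of iron and haem handling, some without an FPKM value. Values were given for 2 of 13 ferritin copies and 12 of 14 haem breakdown and transport genes. Of the 110, 39 reached the mean of 1 FPKM, and 0 were called in limma (adjusted p under 0.05), against the 8.36% of all tested genes. At an unadjusted p under 0.05 there were 7 of 39, against 1234 of all 4859. Their median log2 fold change was 0.13, with 22 above and 17 below 0, against -0.01 over all tested genes. The lists carry the names of the processes, and a gene may stand in more than 1.

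Among uptake and delivery genes, 0 of 5 tested were called. Snx3, a sorting nexin that returns the transferrin receptor to the cell surface, measured 174, 160 and 162 FPKM in knock-in libraries 1, 2 and 3, against 231, 195 and 230 FPKM in wild-type libraries 1, 2 and 3. Those groups did not overlap, with the knock-in below the wild type as in 15.8% of tested genes, yet the difference missed the threshold (log2 fold change -0.40, SE 0.10, limma adjusted p = 0.0524), and it passed when haemoglobin was a covariate (-0.40, adjusted p = 0.0291). Ncoa4, the receptor that sends ferritin to lysosomes, averaged 196 ± 72.3 against 165 ± 24.3 FPKM (SD, n = 3 each), with the highest value, 280 FPKM, in knock-in library 1. Slc11a2, the transporter that moves iron out of the endosome and whose mRNA can carry an iron-responsive element near its end, was under the filter. Its levels, singled out after they were seen, were 0.836, 1.69 and 0.804 FPKM in the knock-in and 0.147, 0.0350 and 0.325 FPKM in the wild type. All knock-in values were above all wild-type values, an order that 7.97% of genes above 0 in any library had.

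Of the export and hormone list only Hfe2, for the hepcidin regulator hemojuvelin, was tested. It measured 2.72, 0.171 and 0.434 FPKM in knock-in libraries 1, 2 and 3, against 1.60, 5.37 and 14.4 FPKM in wild-type libraries 1, 2 and 3, overlapping between the groups (log2 fold change -1.78, SE 0.66, limma adjusted p = 0.131). Slc40a1, the iron exporter ferroportin, was at most 0.927 FPKM, in knock-in library 1. In the sensing list 0 of 3 tested genes were called. Skp1a, a subunit of the ubiquitin ligase that degrades iron regulatory protein 2, averaged 180 ± 12.5 against 141 ± 6.31 FPKM (SD, n = 3 each; limma adjusted p = 0.0646), and Cul1, its scaffold, 23.2 ± 3.26 against 20.5 ± 3.31 FPKM. The iron regulatory proteins themselves were low, with Aco1 at 1.91 against 3.10 FPKM and Ireb2 at most 0.357 FPKM in any library.

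Of the other mRNAs known to carry an iron-responsive element, 0 of 3 tested were called, and all 3 had log2 fold changes below 0. Alas2, the erythroid enzyme that starts haem synthesis, measured 3083, 217 and 373 FPKM in knock-in libraries 1, 2 and 3, against 1714, 826 and 532 FPKM in wild-type libraries 1, 2 and 3, in the same order as haemoglobin.

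Haem synthesis genes followed the haemoglobin of each library. Of 9 tested, 7 were highest in library 1 of both groups, against 12.1% of all tested genes, and 0 were called between the genotypes. Fech, which inserts iron into haem, was 689, 63.0 and 90.5 FPKM in the knock-in and 362, 151 and 140 FPKM in the wild type. The same order held for 6 of 10 tested genes of mitochondrial iron and iron-sulphur clusters, of which 0 were called. Isca1, an assembly factor, averaged 305 ± 181 against 306 ± 72.7 FPKM (SD, n = 3 each). Iscu, the cluster scaffold, was 333, 219 and 241 FPKM in knock-in libraries 1, 2 and 3, against 208, 167 and 158 FPKM in wild-type libraries 1, 2 and 3 (log2 fold change 0.56, SE 0.17, limma adjusted p = 0.0836). Its groups did not overlap, with the knock-in above the wild type as in 14.9% of tested genes. Of the cytosolic assembly list 0 of 4 were called, with Fam96b at 39.1 ± 5.52 against 25.3 ± 5.02 FPKM (SD, n = 3 each; limma adjusted p = 0.0725) and Fam96a at 40.3 ± 2.54 against 36.0 ± 6.73 FPKM. Of the haem breakdown and transport list 0 of 5 were called, Blvrb, a biliverdin reductase gene, having 209 ± 171 against 184 ± 44.0 FPKM and the haem transporter gene Slc48a1 81.2 ± 66.0 against 63.4 ± 26.4 FPKM (SD, n = 3 each).

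With the haemoglobin of each library as a covariate, 5 of 39 iron genes were called, a share close to the 12.7% of all tested genes in that fit: Iscu (log2 fold change 0.57, limma adjusted p = 0.00358), Skp1a (0.35, 0.0421) and Fam96b (0.61, 0.0490) as higher, and Alas2 (-0.44, 0.0175) and Snx3 (-0.40, 0.0291) as lower in the knock-in. Without knock-in library 1, 2 were higher and 8 lower of 37 tested, against 12.6% called over all genes, the lower ones including the haem genes Alas2, Fech and Urod. Haemoglobin itself then differed, with a log2 difference of -0.95. Without the haemoglobin-richest library of each group, 3 were higher and 8 lower of 38, against 15% over all genes, and the haemoglobin difference was -0.58. Iron genes called were 0 with pseudocounts of 0.1 and 5, without a filter, with median-of-ratios scaling, without the variance trend and without each other library in turn (limma, 6 to 9 at an unadjusted p under 0.05). The remaining settings called 1 to 5, and in them the share of all tested genes called was 18.6% at a mean of at least 5 FPKM, 7.37% with quantile normalization, 15.1% on the total without haemoglobin, 9.24% on the total without haemoglobin, erythroid and the 20 most abundant genes, 10.5% with robust variance, 12.4% with sample weights, 6.3% with the replicate block and 7.46% with the length trend removed.

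**Figure D4:**
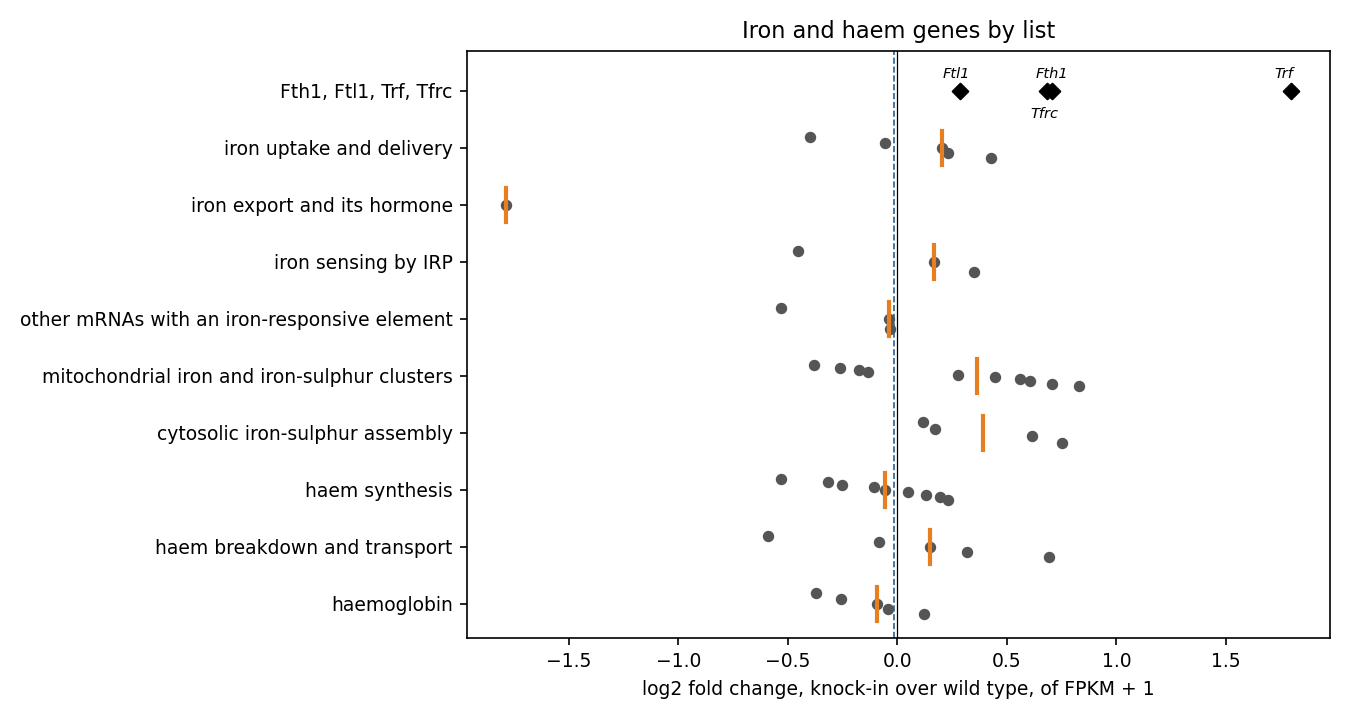
Log2 fold change of FPKM + 1, knock-in over wild type, for Fth1, Ftl1, Trf and Tfrc (diamonds) and for the tested genes of each iron list and of haemoglobin (dots), with list medians as orange bars and the median of all tested genes as a dashed line. The diamonds lie at 0.28 to 1.79 (Ftl1 at -0.41 with quantile normalization). The genes shown as diamonds were chosen with this contrast known, so their place above 0 or beside the dots shows nothing further. The other iron genes lie on both sides of 0, with 0 of 39 called. Over the alternatives run, that count ranged from 0 to 11, the latter of 38 without the haemoglobin-richest library of each group.

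Short transcripts, the ferritin mRNAs among them, had higher fold changes as a class. The 433 tested genes with a transcript of up to 1000 bases had a median log2 fold change of 0.31, against -0.07 for 1811 genes of 2001 to 4000 bases. Ftl1 (968 bases) at 0.28 was close to the median of its length class, and Fth1 (929 bases) at 0.71 lay between that median and its 90th percentile of 0.88. The placement of Fth1 depends on the transcript: its longest annotated coding transcript has 1494 bases, and in the class of 1001 to 2000 bases the median was 0.026 and the 90th percentile 0.62. After removal of the length trend, an alternative added after the data were seen, Fth1 had 0.51, Ftl1 0.11 and Trf (2571 bases) 1.84. Scaling moved the ferritin values too. When libraries were rescaled to their total without haemoglobin, the median of all tested genes moved to -0.22, and Fth1 had 0.46 and Ftl1 0.035 on that scale. The calls over all genes then became 108 higher and 626 lower, against 212 and 194 with the values as deposited. Among the 103 genes with a mean of at least 1000 FPKM, whose median log2 fold change was 0.08, Fth1 ranked 8 and Ftl1 ranked 30 from the highest.

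**Figure D5:**
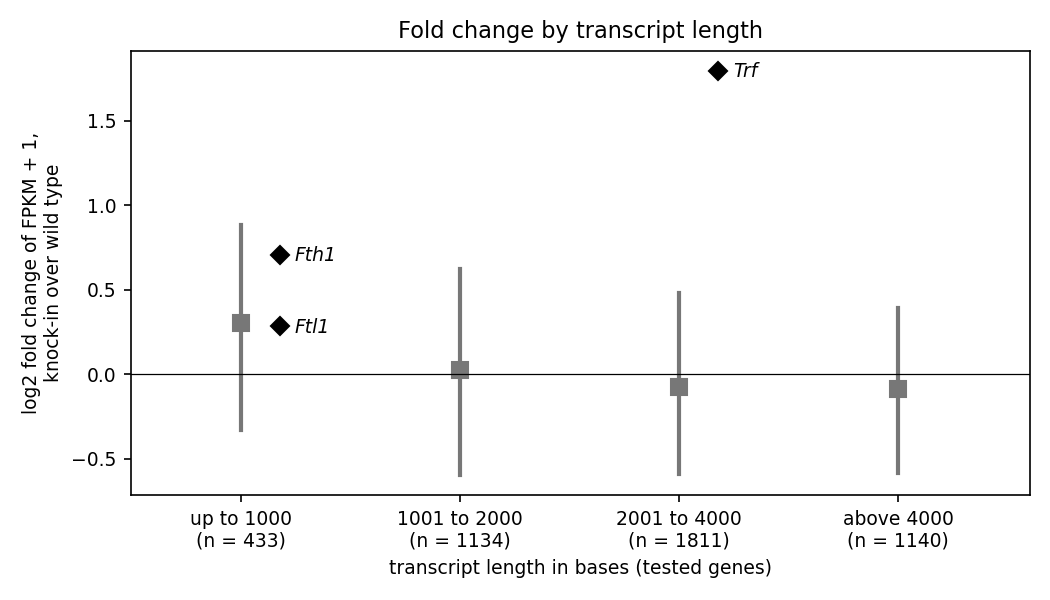
Log2 fold change of FPKM + 1, knock-in over wild type, by transcript length class of the tested genes, with squares at the medians and lines from the 10th to the 90th percentile, and Fth1, Ftl1 and Trf as diamonds. Ftl1 at 0.28 (-0.41 with quantile normalization) sits near the median of 0.31 of genes up to 1000 bases, Fth1 at 0.71 is below that class's 90th percentile of 0.88, and Trf at 1.79 was tested only because it is high in the knock-in, so its place in its class shows nothing further.

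The genes with patterns most like each member were taken by the Pearson correlation of log2(FPKM + 1) over the 6 libraries, as a description with no test, among 4856 tested genes. For Fth1 they were the ribosomal protein gene Rps3a1 (Pearson 0.998, Spearman 0.943), Commd8 (0.997, 1.0) and Serf2 (0.997, 0.943). As with Fth1, Serf2 was higher in knock-in libraries 2 and 3 (798 and 800 FPKM) than in library 1 (670 FPKM), and lower in the wild type (503 to 552 FPKM). For Ftl1 they were the ribosomal protein gene Rpl37 (0.998, 0.943), Akip1 (0.996, 0.829) and Ift20 (0.995, 0.829). Fth1 had 154 genes above a Pearson value of 0.95 and Ftl1 126, all over the same 6 libraries. Trf was most like D5Ertd605e (0.996, 1.0), the ribosomal protein gene Rpl10 (0.979, 0.943) and the homeobox gene Hlx (0.979, 0.943). Tfrc was most like the deubiquitinase gene Usp14 (0.988, 0.943), A630066F11Rik (0.975, 0.829) and Fbxo30 (0.974, 0.943). Both Trf and Tfrc were highest in knock-in library 1.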

How the data were processed

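The 6 platelet samples were grouped by title. Per the labels' protocols, TRIzol and then a miRNeasy Micro kit yielded the RNA, SMART-Seq HT the cDNA and Nextera XT the libraries, a chemistry that does not mark strand. The authors deposited 1 table per sample with an FPKM value for each gene symbol. The submitters' processing notes name mm10 as build and list Cuffdiff 2.2.1, SAMtools 0.1.18, TopHat2 2.1.1 and Bowtie2 2.2.8. Their settings and the annotation are not given in the sources used here.

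Genes with a mean of at least 1 FPKM were tested on log2(FPKM + 1), a scale that understates changes of low genes, with limma (version 3.58.1, R 4.3.3), with group as the only term, a variance trend and Benjamini-Hochberg adjustment over all genes tested, at 0.05. The procedure was tested on simulated data with independent normal noise and a variance set by mean level alone. Such data hold no library effects, so the outcome does not bear on how the calls depend on single libraries. Fragment numbers are rough estimates for 1 transcript length per gene, and an exact 0 can be a failed estimate. Replicates shared 0 identical values above 0.

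Members and lists were chosen with earlier results of these data known. Named genes were the 4 members, the called genes and the 2 of highest mean FPKM in each iron list, the haemoglobin genes above 0, and the 3 genes most alike per member. Others, such as Slc40a1, Aco1 and Ireb2, were added after their values were seen. Some genes under this rule are not reported here. Coordinates and transcripts are GENCODE M21. Alternatives covered pseudocount, filter, scaling, limma settings, a haemoglobin covariate, a replicate block and libraries left out.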

Additional observations from a re-analysis of the deposited data

How the results depend on the processing

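Log2 fold changes of the 4 genes stayed above 0 under every alternative run on them, except Ftl1 with quantile normalization (-0.41). A mean of at least 5 FPKM left no value for Trf or Tfrc, and removal of the length trend was not run for Tfrc or the ratio. Fth1 became 0.49 with quantile normalization, 0.46 on the total without haemoglobin, 0.51 with the length trend removed and 0.89 without the haemoglobin-richest library of each group, and 0.62 to 0.83 with 1 library left out. Ftl1 became 0.035 on the total without haemoglobin, 0.23 without haemoglobin, erythroid and the 20 most abundant genes, 0.11 with the length trend removed and 0.26 to 0.30 with 1 library left out. Trf depended on the pseudocount (3.36 with 0.1, 0.70 with 5), as did Tfrc (1.54 and 0.21); with 1 library left out they ranged over 1.48 to 2.02 and 0.36 to 0.85. The log2 Fth1 to Ftl1 ratio difference of 0.42 became 0.89 with quantile normalization and 0.59 without the haemoglobin-richest libraries, and was 0.37 to 0.53 with 1 library left out. The haemoglobin difference of -0.07 ranged from -0.95 to 0.47 with 1 library left out, turning positive without knock-in library 2 (0.47) or 3 (0.28) or wild-type library 1 (0.31).

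The 406 genes called became 107 without a filter, 0 without the variance trend (1197 at an unadjusted p under 0.05), 734 on the total without haemoglobin, 618 with the haemoglobin covariate, 728 without the haemoglobin-richest libraries, and 0 (without knock-in library 3, 994 at an unadjusted p under 0.05) to 610 (without knock-in library 1) with 1 library left out. Leaving out knock-in library 2 gave 85, wild-type library 2 gave 41 and wild-type library 3 gave 113. The 0 iron genes called became 1 with quantile normalization, on the total without haemoglobin, without haemoglobin, erythroid and top genes, and with the length trend removed, each time Snx3. They became 2 at a mean of at least 5 FPKM, 2 with a robust variance, 5 with sample weights, 5 with the haemoglobin covariate and 11 without the haemoglobin-richest libraries, and 0 to 10 with 1 library left out. The replicate block gave 306 genes and 1 iron gene, Iscu (limma adjusted p = 0.0306). Same-numbered libraries had deviations from their group means that correlated at 0.158, 0.0235 and 0.141 across genes. Knock-in libraries 1 and 3 correlated best with the wild-type library of the same number, and knock-in library 2 with wild-type library 3 (0.0674). Whether same-numbered libraries share a batch was not tested. The cause of these dependences was not tested. Depth limits Trf and Tfrc, which rest on few fragments in the wild type.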
